A study of Bos taurus with 5 samples.

Results

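The genes described here are the 3 cytochrome c oxidase genes (*COX1*, *COX2*, *COX3*), both ATP synthase genes (*ATP6*, *ATP8*) and the cytochrome b gene (*CYTB*) of bovine mitochondrial DNA (mtDNA), 6 of the 24616 features for which RNA-seq values of single blastocysts were deposited. The data come from 5 single bovine blastocysts, which form a single group of biological replicates (blastocysts 1 to 5). Holstein oocytes were matured for 24 h, fertilized in vitro with semen of a Holstein bull and cultured for 7 days in KSOMaa medium with BSA, to which fetal bovine serum was added during culture, and the zona pellucida and remaining cumulus cells were removed with pronase before the RNA of each embryo was extracted, amplified and sequenced on its own. No embryo received a treatment and the labels define no second group, so the comparisons below are between genes within embryos and between single embryos. The labels give no sex of the embryos, and the sex that the study inferred from expression in these same embryos was not used to form groups. The labels name the tissue as blastocyst and the source as ovary, and the table gives Ensembl IDs without gene names, so the label was not checked against marker genes. Each sample is a whole embryo and its values are relative to its mapped reads, so they do not measure its number of cells. Fewer mitochondria and less mitochondrial RNA per cell cannot be told apart.

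Mitochondria carry a small circular genome that encodes a few subunits of the respiratory chain, while the other subunits are encoded in the nucleus. Both strands of mtDNA are transcribed into long RNAs, which are cut, mostly at the tRNAs between the genes, into mRNAs, rRNAs and tRNAs. Not all neighbouring genes are parted by a tRNA, and the reading frames of *ATP8* and *ATP6* overlap and lie on a single mRNA, as do those of *ND4L* and *ND4*. In the preimplantation embryo, mitochondria are inherited from the oocyte.

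The 6 genes were found by their place in the table. A run of 37 neighbouring rows holds mtDNA in genome order, and the genes stand at positions 16 (*COX1*, ENSBTAG00000043561), 19 (*COX2*, ENSBTAG00000043556), 21 (*ATP8*, ENSBTAG00000043564), 22 (*ATP6*, ENSBTAG00000043584), 23 (*COX3*, ENSBTAG00000043560) and 35 (*CYTB*, ENSBTAG00000043550). A pair of checks bears on these names. In the RefSeq annotation of the ARS-UCD2.0 assembly, mtDNA also has 37 genes, of which 13 encode proteins, 22 are tRNAs and 2 are rRNAs. The 13 rows of the run with values above 0 stood at exactly the 13 protein-coding positions, and the other 24 rows were listed at 0 in all embryos.

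The lengths of the genes gave the second check, and with it the depth. RPKM, the unit of the table, is a whole number of reads divided by the length of the gene in kilobases and by the mapped reads of the embryo in units of 1e+06 reads. With the RefSeq lengths, totals of mapped reads from 15000000 to 45000000 were tried. In this range a single total per embryo made the values of all 13 genes whole reads within the rounding of the table, and every other total tried made at most 11 of them whole. Multiples of a total also give whole reads and lie above this range. These totals were 25935031, 28019343, 29781827, 30145356 and 30715775 reads in blastocysts 1 to 5. When the length of each of the 6 genes was left out and every length from 100 to 2000 nt was tried, the shortest length that gave whole reads in all embryos was 1545 nt for *COX1*, 684 nt for *COX2*, 201 nt for *ATP8*, 681 nt for *ATP6*, 781 nt for *COX3* and 1140 nt for *CYTB*, the same as in RefSeq. Any other length that fitted was a multiple of it. The 6 genes held between 12273 reads (*ATP8* in blastocyst 4) and 1639264 reads (*COX1* in blastocyst 3) per embryo. At this depth the 95% counting interval (exact Poisson) was at most ± 1.77% of a value, and it covers counting error only, since amplified reads are not independent molecules. Copies of mtDNA sequence in the nuclear genome can share reads with these genes, and how reads with several matches were used was not stated.

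Per length, *COX1* was by far the most abundant of the 6 genes and *COX2* the least abundant. *COX1* encodes the catalytic core subunit of complex IV (cytochrome c oxidase), the enzyme that passes electrons to oxygen. Blastocysts 1 to 5 had 26511, 37015, 35626, 29226 and 25830.0 RPKM, with a mean of 30842 ± 5184 (SD, n = 5). Blastocysts 2 and 3 were the high embryos, and the highest embryo was 1.43 times the lowest. *COX2*, whose product takes up electrons from cytochrome c in the same complex, was at 1694, 1368, 1638, 1377 and 1963 RPKM in blastocysts 1 to 5, with a mean of 1608 ± 248. As deposited, blastocyst 2, which had the highest level of *COX1*, had the lowest level of *COX2*. Blastocyst 5 was the lowest for *COX1* and the highest for *COX2*. Of these places, only that of blastocyst 5 as the highest for *COX2* held under each of the 3 rescalings described below. *COX3*, the third core subunit of complex IV encoded in mtDNA, was at 7960 RPKM in blastocyst 1 and at 9989, 7756, 7148 and 7476 RPKM in blastocysts 2 to 5 (mean 8066 ± 1118). Blastocyst 2 stood above the rest, and the other embryos lay close together.

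The 3 core subunits of the same complex thus had unequal levels of RNA per length. The ratio of *COX1* to *COX2* in blastocysts 1 to 5 was 15.7, 27.1, 21.7, 21.2 and 13.2, with a mean of 19.8 ± 5.48 (SD, n = 5). The ratio of *COX1* to *COX3* varied less, between 3.33 and 4.59, and that of *COX3* to *COX2* lay between 3.81 and 7.30. No embryo departed from the order *COX1*, *COX3*, *COX2*, although *COX1* and *COX2* are next to each other on mtDNA with only tRNA genes between them.

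**Figure D1:**
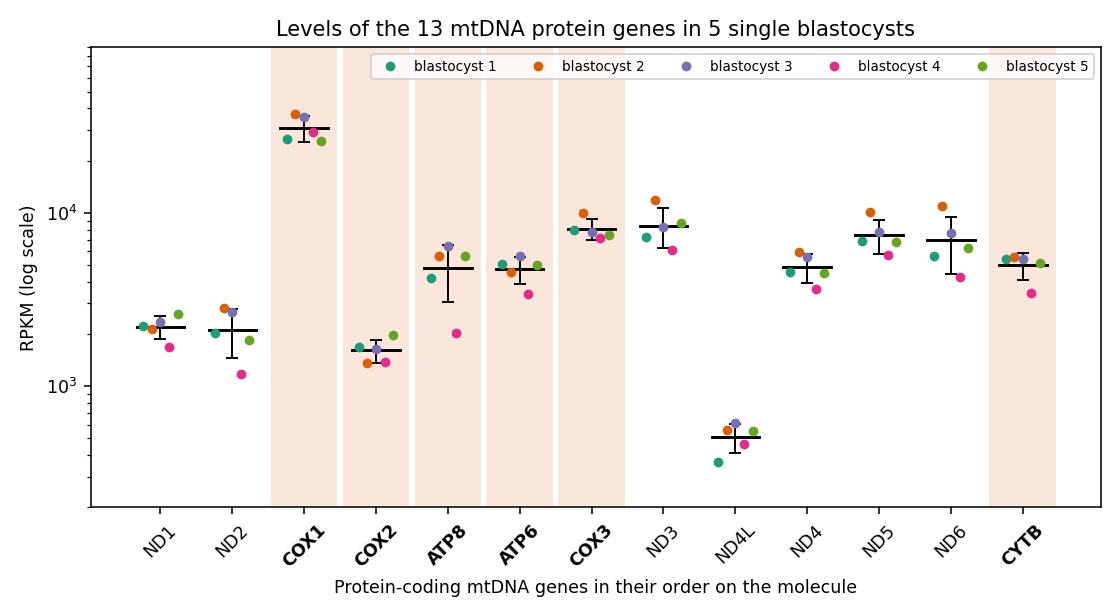
RPKM (log scale) of the 13 protein-coding mtDNA genes in their order on the molecule, with a point per embryo, a line at the mean and SD bars (n = 5); the 6 genes described are shaded and in bold. *COX1* stands above all other genes in every embryo, and the 3 genes *ATP8*, *ATP6* and *CYTB* lie at a like level.

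*ATP8* and *ATP6* had nearly the same mean level but differed in their spread. Both encode subunits of the membrane part of ATP synthase, and *ATP6* forms part of its proton channel. *ATP8* was at 4190.0, 5662, 6469.9, 2026 and 5648 RPKM in blastocysts 1 to 5 (mean 4799 ± 1755, SD, n = 5). *ATP6* was at 5079.7, 4581, 5620.1, 3415 and 4985 RPKM in the same order (mean 4736 ± 826). Both genes were highest in blastocyst 3 and lowest in blastocyst 4. The highest embryo was 3.19 times the lowest for *ATP8* and 1.65 times the lowest for *ATP6*. The SD was 36.6% of the mean for *ATP8* and 17.4% for *ATP6*, and without blastocyst 4 it was 17.3% and 8.44%. The ratio of *ATP8* to *ATP6* was 0.825, 1.24, 1.15, 0.593 and 1.13 in this order, so neither gene was higher in all embryos although both lie on the same mRNA. The low value of *ATP8* in blastocyst 4 rested on 12273 reads, with a 95% counting interval from 1990 to 2062 RPKM (exact Poisson), whereas the value in blastocyst 3 rested on 38730 reads. *ATP8* is the shortest of the 6 genes and overlaps *ATP6*, and how reads in the overlap were assigned was not stated.

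*CYTB* encodes cytochrome b, the only subunit of complex III (cytochrome bc1 complex) that is encoded in mtDNA. It was at 5421, 5558, 5389.6, 3444 and 5156 RPKM in blastocysts 1 to 5, with a mean of 4994 ± 879 (SD, n = 5). The other 4 embryos lay close together and blastocyst 4 lay below them. The coefficient of variation (CV, SD as a percent of the mean) was 17.6% over 5 embryos and 3.1% without blastocyst 4.

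The order of mean levels on the log2 scale was *COX1*, *COX3*, *CYTB*, *ATP6*, *ATP8* and *COX2*. To ask which neighbours in this order differed beyond the spread between embryos, the difference in log2 RPKM was taken within each embryo for all 15 pairs of the 6 genes. In 12 pairs the same gene was higher in 5 of 5 embryos and the ranges of RPKM did not overlap. *COX1* exceeded *COX3* by 1.93 ± 0.19 (mean ± SD of the log2 difference, n = 5), *COX3* exceeded *CYTB* by 0.70 ± 0.24, and *ATP8* exceeded *COX2* by 1.48 ± 0.60. The pairs among *CYTB*, *ATP6* and *ATP8* were the exception. *CYTB* differed from *ATP6* by 0.07 ± 0.13 and was higher in 4 of 5 embryos, *ATP6* differed from *ATP8* by 0.07 ± 0.44 and was higher in 2 of 5 embryos, and *CYTB* differed from *ATP8* by 0.14 ± 0.42 and was also higher in 2 of 5 embryos, so these differences were not larger than their spread. With 5 embryos the exact two-sided sign-flip permutation test cannot give a p below 0.0625, and the 12 pairs reached this limit (Benjamini-Hochberg adjusted over 15 pairs, p = 0.0781). The 3 other pairs had an exact permutation p of 0.25 (*CYTB* and *ATP6*), 0.625 (*CYTB* and *ATP8*) and 0.813 (*ATP6* and *ATP8*). All of these differences are per length. As reads not divided by length, the mean log2 difference was -0.28 for *ATP8* minus *COX2*, 0.16 for *COX3* minus *CYTB* and 0.82 for *CYTB* minus *ATP6*.

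**Figure D2:**
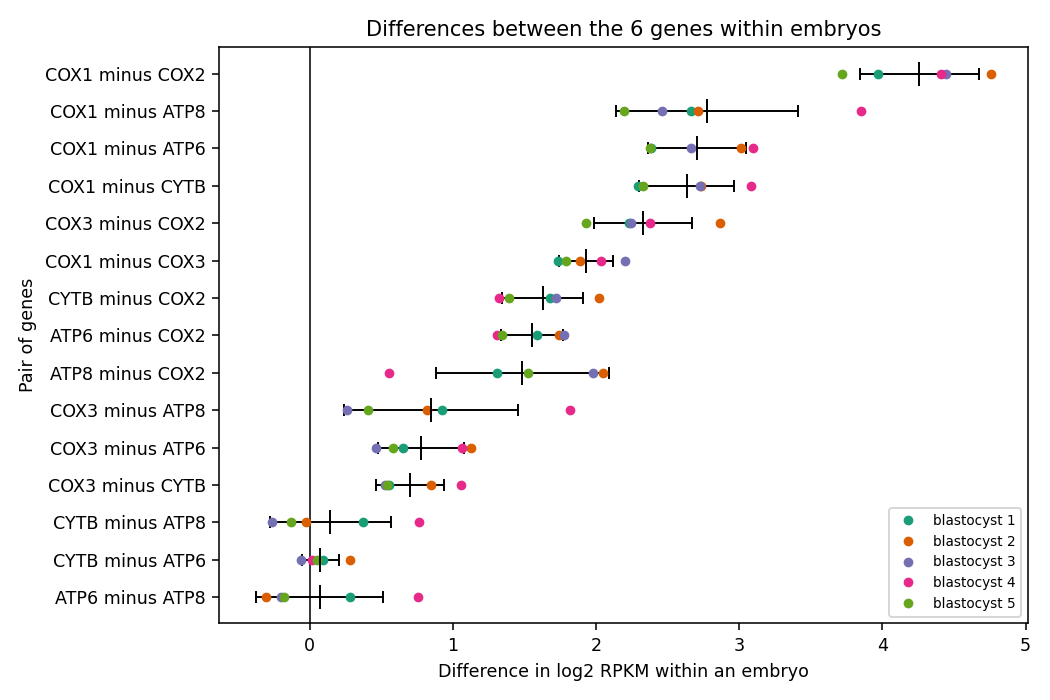
Difference in log2 RPKM within an embryo for the 15 pairs of the 6 genes, with a point per embryo, a tick at the mean and SD bars (n = 5). The points of 12 pairs lie on one side of 0, and the points of the 3 pairs among *CYTB*, *ATP6* and *ATP8* lie on both sides.

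The 6 genes held 17.5%, 19.7%, 20.6%, 17.1% and 17.9% of the summed RPKM of blastocysts 1 to 5, with a mean of 18.6% ± 1.51 (SD, n = 5). The rRNA genes of mtDNA are among the rows listed at 0, so these sums leave mitochondrial rRNA out. *COX1* alone held 10.4% ± 1.25. Among the 6 genes, *COX1* took between 50.6% of their sum in blastocyst 5 and 62.7% in blastocyst 4. Counted as reads and not per length, the 6 genes took 5.88%, 7.65%, 7.35%, 5.83% and 5.75% of the mapped reads of blastocysts 1 to 5 (mean 6.49% ± 0.927). The recovered totals averaged 28919466 reads, which at the rounding of the paper is its mean of reads mapped to annotated genes. The paper assigns part of those reads to mitochondrial rRNA. If they are the same reads, the base of this share includes rRNA reads that the summed RPKM leaves out, and differs from it in more than length. Blastocysts 2 and 3 had the higher values on both scales, and the other 3 embryos lay close together.

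**Figure D3:**
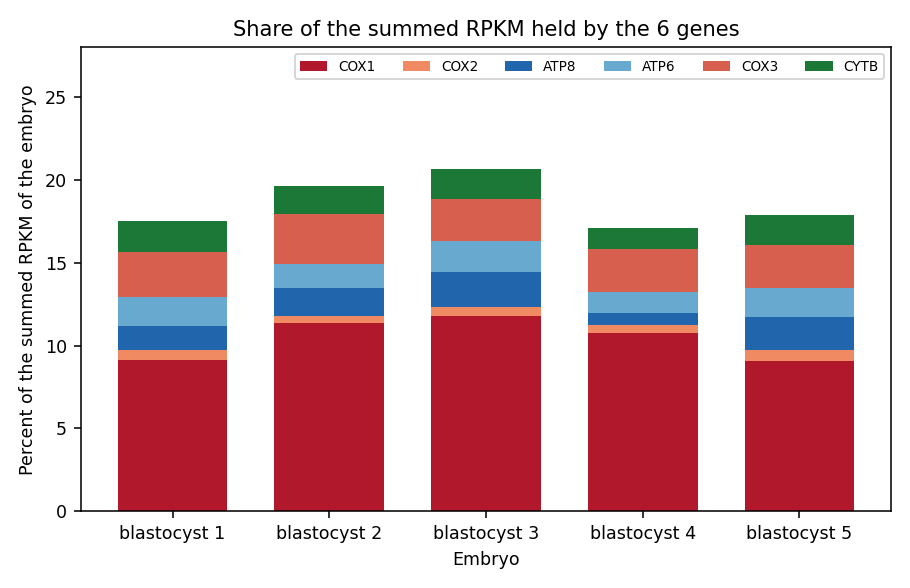
Percent of the summed RPKM of each embryo held by each of the 6 genes (stacked bars, n = 1 library per bar). The bars reach between 17.1% and 20.6%, and *COX1* is the largest part of each.

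The embryos did not rank alike for all 6 genes. As a background, the same counts were made over the 9490 features whose mean RPKM reached 0.4 and over the 372 whose mean reached 100, the latter nearer to the level of these genes. Blastocyst 4 was the lowest embryo for 4 of the 6 genes (*ATP8*, *ATP6*, *COX3* and *CYTB*), against 12.5% and 21.8% of the features in these backgrounds. The lowest embryo was blastocyst 2 for *COX2* (24.4% and 12.6% of the features) and blastocyst 5 for *COX1* (25.2% and 17.2%). Blastocyst 2 was the highest embryo for 3 of the 6 genes (*COX1*, *COX3* and *CYTB*), against 19.1% and 34.4% of the features. Blastocyst 3 was the highest for *ATP8* and *ATP6* (25.5% and 15.3% of the features), and blastocyst 5 for *COX2* (14.0% and 16.9%). The genes share the RNA, the library and the scaling of an embryo, so these counts describe 5 embryos and not independent events.

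Relative to its own mean over the embryos, *ATP8* was lower by 1.14 on the log2 scale in blastocyst 4 (a deviation of -1.14). The deviation there was -0.51 for *CYTB*, -0.45 for *ATP6*, -0.21 for *COX2*, -0.16 for *COX3* and -0.06 for *COX1*, so all 6 genes lay below their mean in this embryo as deposited, to an unequal extent. With every embryo rescaled to the same sum over all features, *COX1* lay above its mean there (31701 RPKM, mean 30738), while *ATP8*, *ATP6*, *COX3*, *COX2* and *CYTB* lay below theirs. In blastocyst 2, *ATP8*, *COX3*, *COX1* and *CYTB* lay above their mean by 0.35, 0.32, 0.28 and 0.18, while *ATP6* (-0.03) and *COX2* (-0.22) lay below it. The median deviation of the 6 genes in blastocysts 1 to 5 was 0.04, 0.23, 0.18, -0.33 and 0.08.

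**Figure D4:**
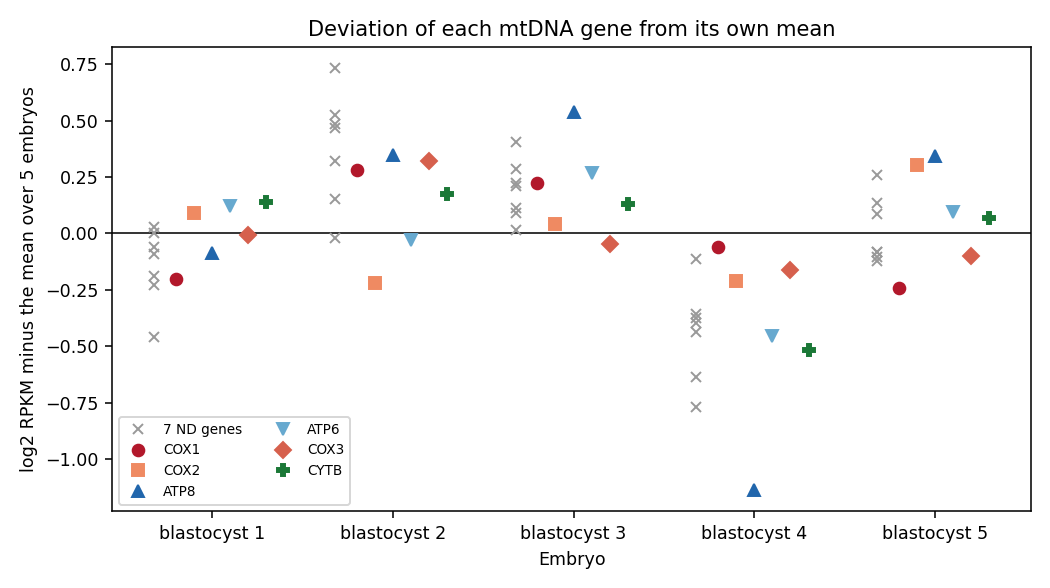
Deviation of log2 RPKM from the mean of the gene over 5 embryos, by embryo, for the 6 genes (coloured symbols) and the 7 ND genes of mtDNA (grey crosses). In blastocyst 4 all 6 coloured symbols lie below 0 and *ATP8* is the lowest, at -1.14, and in blastocyst 2 *COX2* lies below 0 while *COX1* and *COX3* lie above it.

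RPKM is scaled to all mapped reads, so the values of an embryo also depend on what else was sequenced. When every embryo was rescaled to the same sum over the features outside mtDNA, the level of *COX1* was 26208, 35323, 36056, 29967 and 26434 RPKM in blastocysts 1 to 5, so blastocyst 3 and not blastocyst 2 was the highest. Blastocyst 2 was then the highest embryo for 1 of the 6 genes and blastocyst 3 for 4. The background shares above are for the values as deposited and do not apply to rescaled counts. Blastocyst 4 was the lowest embryo for *ATP8*, *ATP6* and *CYTB* under each of the 3 rescalings tried (same median, same sum outside mtDNA and same sum over all features). The highest embryo was between 2.87 and 3.15 times the lowest for *ATP8* under these rescalings. *COX3* was highest in blastocyst 2 under each of them, at 1.20 to 1.43 times the lowest embryo.

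**Figure D5:**
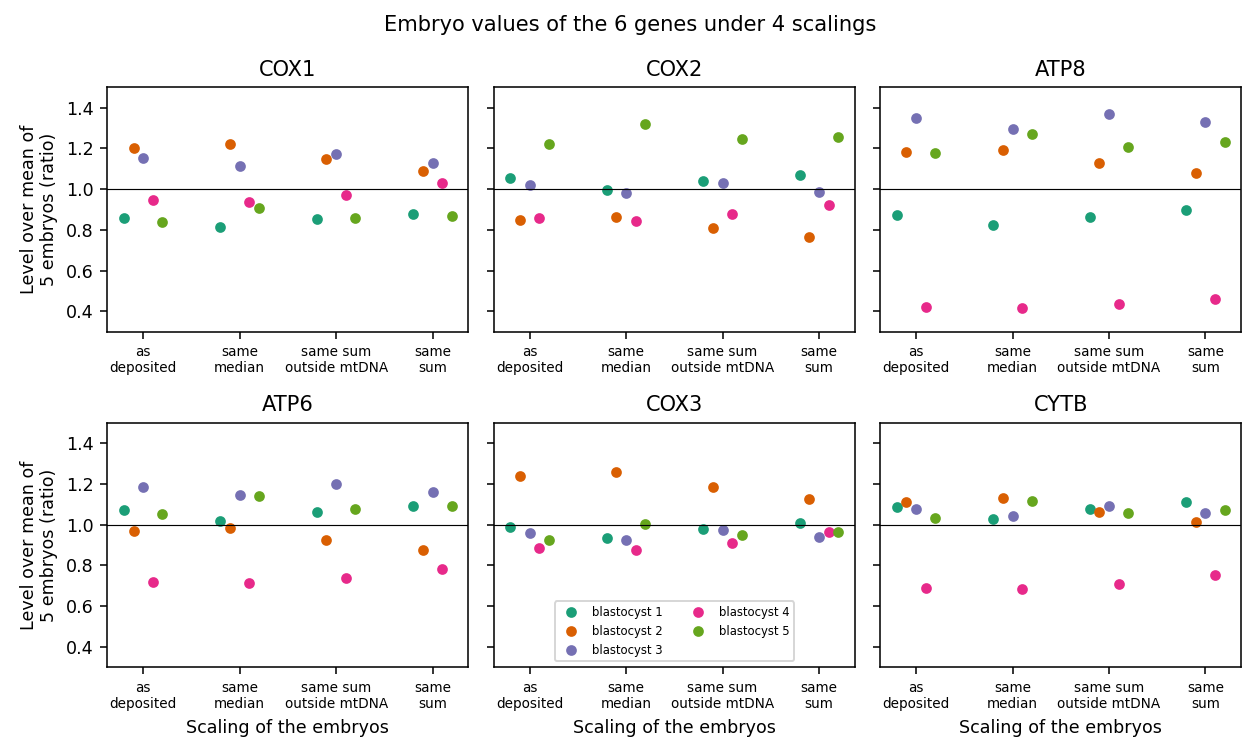
Level of each of the 6 genes in each embryo divided by its mean over 5 embryos (ratio), for the values as deposited and under 3 rescalings of the embryos. Blastocyst 4 is the lowest point for *ATP8*, *ATP6* and *CYTB* under all 4 scalings, while the highest point of *COX1* changes between blastocysts 2 and 3.

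The CV between embryos was 16.8% for *COX1*, 15.4% for *COX2*, 36.6% for *ATP8*, 17.4% for *ATP6*, 13.9% for *COX3* and 17.6% for *CYTB*. Outside mtDNA, 19 features reached a mean of 1000 RPKM, with a median CV of 18.3%. *ATP8* had a higher CV than all 19 of them, and the other 5 genes lay below their median. Over the 359 features outside mtDNA that reached 100 RPKM, the median CV was 18.8%, and 90.3% of them had a lower CV than *ATP8*. These values depended on single embryos, since without blastocyst 4 the CV was 17.3% for *ATP8* and 8.44% for *ATP6*, and without blastocyst 2 it was 4.64% for *COX3*. The ND genes had a median CV of 22.2%, up to 36.7% for *ND6*, which was above that of *ATP8*. The highest embryo was at least 2 times the lowest for 1 of the 6 genes (*ATP8*) and 2 of the 7 ND genes (*ND2* and *ND6*), against 64.8% of the 9490 features and 19.9% of the 372 features of the backgrounds above.

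The other protein-coding genes of mtDNA are the 7 ND genes, which encode subunits of complex I (NADH dehydrogenase), the entry point of electrons from NADH. The mean log2 RPKM of the 6 genes exceeded that of the ND genes by 0.98, 0.59, 0.83, 0.84 and 0.89 in blastocysts 1 to 5 (mean 0.83 ± 0.14, higher in 5 of 5 embryos, exact two-sided sign-flip permutation p = 0.0625, the smallest possible). The highest gene was *COX1*, at 30842 RPKM, and the lowest was *ND4L*, at 512 RPKM. With the median gene of each group in place of the mean, the log2 difference was 0.08 (exact permutation p = 0.313). The 6 genes made up 63.2% ± 2.90 (SD, n = 5) of the summed RPKM of the 13 protein-coding mtDNA genes, from 59.1% in blastocyst 2 to 66.95% in blastocyst 4. The median deviation of the ND genes in blastocysts 1 to 5 was -0.09, 0.46, 0.21, -0.40 and -0.08. Its sign was that of the 6 genes in blastocysts 2 to 4 and the opposite in blastocysts 1 and 5. Blastocyst 4 was the lowest embryo for 6 of the 7 ND genes, against 12.5% of the 9490 features and 21.8% of the 372 features of the backgrounds above.

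The constancy of the ratios between genes across the embryos was set beside the places of the genes on mtDNA. Among the 15 pairs, the SD of the log2 difference was smallest for *CYTB* and *ATP6* (0.13), which lie apart on the molecule, and largest for *COX1* and *ATP8* (0.63). For *ATP8* and *ATP6*, which share an mRNA, it was 0.44. *ATP8* was the gene of all 12 others whose ratio to *ATP6* varied most, and the same held for *COX1*, *COX2*, *COX3* and *CYTB*. Set beside *ATP8* itself, *ATP6* ranked 4 of the 12 others by this SD, counted from the smallest. A gene that varies much on its own raises this SD in every pair. The SD of log2 RPKM was 0.68 for *ATP8*, above that of each of the 12 others (0.51 for *ND6* and 0.27 for *ATP6*). These ranks therefore do not tell whether *ATP8* and *ATP6* moved together, and both were highest in blastocyst 3 and lowest in blastocyst 4. When each gene was set beside the other 12 protein-coding mtDNA genes, the ratio varied least to *COX3* for *COX1* (SD 0.19), to *ND1* for *COX2* (0.14), to *ND2* for *ATP8* (0.32), to *CYTB* for *ATP6* (0.13), to *ND5* for *COX3* (0.15) and to *ATP6* for *CYTB* (0.13). None of these 6 is the next protein-coding gene along mtDNA. Few of the 12 others are neighbours of a given gene, so finding none can also arise by chance. *CYTB* and its neighbour *ND6*, which is encoded on the opposite strand, had an SD of 0.35. These are descriptions over 5 embryos, in which a single embryo weighs heavily, and no test was made.

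Outside mtDNA, likeness was measured as the SD over embryos of the log2 ratio of a feature to the geometric mean of the 6 genes. Over the 2902 features whose mean reached 10 RPKM, the median of this SD was 0.42. The most alike was ENSBTAG00000018153 (SD 0.07), with 159, 188, 195, 125 and 162 RPKM in blastocysts 1 to 5, followed by ENSBTAG00000005718 (SD 0.08), with 14.1, 15.1, 16.5, 10.6 and 16.8 RPKM. Both were lowest in blastocyst 4. The SD was between 0.13 and 0.34 for the ND genes, and 13 features outside mtDNA were below the lowest of these. For the 6 genes themselves it was between 0.09 (*CYTB*) and 0.43 (*ATP8*), with a median of 0.23. Of the features outside mtDNA, 7.79% were below this median, so a small SD did not set the 6 genes apart. With a filter at 1 RPKM and a pseudocount of 1 RPKM, 2 of the 5 most alike features were shared with the list made here. The features were picked from many for this likeness and their IDs are not paired with names here.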

How the data were processed

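RNA-seq of 5 single bovine blastocysts was re-analysed. Reads of 40 bp, cut to their last 31 nt, were mapped by the authors to Ensembl gene models of UMD3.1 in CLC Genomics Workbench (up to 2 mismatches). The authors deposited RPKM values per feature and embryo, which were used without further scaling unless stated. The handling of reads with several matches was not stated. No count model was fitted to these normalized values. Reads per gene were derived from RPKM, gene length and total as described above. A value was called whole reads when it lay within the rounding of the table (0.0005 RPKM). Log2 values had no pseudocount.

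Members and lists were chosen with earlier results of these data known. Named genes are the 6 genes, their mtDNA neighbours and the 2 features most like them. Lists of nuclear respiratory genes and cell markers were not run, since the IDs are not paired with names. Read recovery and the likeness measure were tested on simulated data. Python 3.11.15, numpy 2.4.6, pandas 2.3.3 and scipy 1.17.1 were used.

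Alternatives covered rescaling, pseudocounts, low-value filters, length correction, the groups of genes compared and the omission of each embryo.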

Additional observations from a re-analysis of the deposited data

Results flagged for a closer look

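Of 23 measures compared between the 5 embryos (6 levels, 15 differences between genes, the share of the 6 genes and their difference from the ND genes), 2 had an embryo whose gap to the nearest other embryo, divided by the whole range, was above the critical value of 0.71, where chance gives about 1.15. *CYTB* had a ratio of 0.81, from the low value of blastocyst 4 (3444 RPKM, with 5156 RPKM in the next embryo). *COX3* had a ratio of 0.714, from the high value of blastocyst 2 (9989 RPKM, with 7960 RPKM in the next embryo), and lies close to the critical value. No cause was tested.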

How the results depend on the processing

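Of 140 values recomputed under other settings, 123 stayed within the spread between embryos or kept their direction, as did 139 of 145 values recomputed without 1 embryo. Some that kept their direction changed in size. The log2 difference between the 6 genes and the ND genes went from 0.83 to 0.08 with the median gene of each group, and as reads not divided by length *COX3* minus *ATP8* went from 0.85 to 2.80 and *COX1* minus *ATP8* from 2.78 to 5.72. The order of *ATP6*, *ATP8* and *CYTB* was not stable. With reads divided by the number of places where a whole read of 31 nt fits (chosen after seeing the data), the log2 difference of *CYTB* minus *ATP8* became -0.052 and that of *ATP6* minus *ATP8* became -0.10. Without each embryo in turn these ranged from -0.013 to 0.24 and from -0.10 to 0.16, the lower values without blastocyst 4. As reads not divided by length, *ATP8* minus *COX2* became -0.28, since *ATP8* is shorter. In these reads *COX3* minus *CYTB* was 0.16 (0.70 per length; adjusted p = 0.4375, exact permutation test), whereas *CYTB* minus *ATP6* was 0.82, *CYTB* minus *ATP8* 2.65 and *ATP6* minus *ATP8* 1.83 (adjusted p = 0.0721 each, exact permutation test).

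The share of the 6 genes was 20.9% when the ND genes were left out of the sum and 63.2% of the mtDNA genes, by construction. Without each embryo, the CV ranged from 17.3 to 42.5% for *ATP8*, 8.44 to 20.1% for *ATP6*, 4.64 to 15.9% for *COX3* and 3.1 to 20.4% for *CYTB*, and the CV of *COX3* was 7.37% with the same sum in every embryo.

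With the same sum outside mtDNA, 1 of the 6 genes was highest in blastocyst 2 and 4 in blastocyst 3, and 1 was lowest in blastocyst 1 and 0 in blastocyst 5. With the same sum over all features, 1 was highest in blastocyst 1, 1 in blastocyst 2, and 1 was lowest in blastocyst 3. With the same median, 1 was lowest in blastocyst 1, 0 in blastocyst 2 and 0 in blastocyst 5. No background share is given for these rescaled counts. With a filter at 1 RPKM and a pseudocount of 1 RPKM, 2 of the 5 most alike features outside mtDNA were shared. The cause was not tested. For the 6 genes the exact Poisson counting interval was at most ± 1.77% of a value, which covers counting error only. Whether depth limited these values was not tested. With 5 embryos the exact sign-flip permutation test allows no p below 0.0625. Embryos could not be paired between groups because there is no second group. The differences between genes were paired, since all were taken within embryos.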
